A study of Homo sapiens with 12 samples.

Results

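The genes described here encode subunits of RNA polymerases I, II and III, the Mediator complex, the TBP-associated factors (TAFs) and the general transcription factors of RNA polymerases II and III. They were taken by symbol from the raw count table, as every symbol built on the stems POLR1, POLR2, POLR3, MED, TAF, GTF2 or GTF3 followed by the letters and digits of a subunit name, with the exception of TAF15. This gave 114 of 26334 symbols, and 101 of them, those that averaged 10 counts or more per library, were tested. The cells were shA673-1c, a derivative of A673, an established line of Ewing sarcoma, and their RNA was sequenced. The cells were kept in medium with blasticidin and zeocin at all times and were treated with 5 µM actinomycin D (ActD), which blocks transcription, for 0, 1, 2 or 4 h, with 3 replicates per time and 12 poly(A) libraries in all. The labels name no induction of an shRNA and no untreated course over the same hours, so the 0 h cells are the only control.

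RNA polymerase II makes messenger RNA. TFIIA, TFIIB, TFIID, TFIIE, TFIIF and TFIIH place it at promoters and open the DNA, and Mediator carries signals from activators to the polymerase through its head, middle, tail and kinase modules. RNA polymerase I makes ribosomal RNA with the help of the SL1 factor, and RNA polymerase III makes transfer RNA and 5S RNA with TFIIIA, TFIIIB and TFIIIC. Some subunits are built into all 3 polymerases. Messages of transcription regulators are known for a wide range of stabilities.

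The libraries held from 9147018 to 11194705 counts. The counts of all members together made up 0.628% to 0.652% of a library at 0 h and 0.530% to 0.548% at 4 h. The 0 h and 4 h libraries thus did not overlap. These are shares of raw library totals, on which the median slope of all tested genes was also below 0 (−0.030 log2 per hour). On the TMM scale defined below, the tested members summed to 6153 ± 169 CPM (SD, n = 3) at 0 h and 5735 ± 219 at 4 h. These sums did not overlap either, and the difference was not tested. Of 10 Ewing sarcoma markers, 9 had a mean of at least 10 counts, while CD99 had no count in any library, and of 7 markers of blood, endothelium, epithelium and liver no library held more than 6 counts. MYC, JUN and IER2, whose messages are short-lived, fell with time with slopes of −1.12, −0.89 and −0.84 log2 per hour. In these bulk libraries, fewer cells and less RNA per cell cannot be told apart.

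Values are CPM (counts per 1000000 counts of the library), with the library size corrected by TMM factors, and the slope is the fitted change in log2 level per hour over the 4 times. A gene is said to have fallen or risen where edgeR's quasi-likelihood test of the slope had an adjusted p below 0.05 over all 12032 tested genes. No spike-in was described, so every slope is relative to the rest of the library. The median slope of all tested genes was 0.0093, with quartiles at −0.133 and 0.089. When libraries were scaled to GAPDH plus ACTB instead, the median of all genes shifted by −0.138 to −0.128 log2 per hour, and the rises reported below are rises relative to the typical message, not to those 2.

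Of the 101 tested members, 42 fell and 28 rose on the TMM scale, against 32.1% of all tested genes that fell and 30.7% that rose. The share of members that fell was thus 41.6% and the share that rose 27.7%, and the members' median slope of −0.021 was 0.030 below that of all genes. Scaled to library totals, 53 members fell and 17 rose, against 39.1% and 18.7% of all tested genes. Scaled to GAPDH plus ACTB, 80 fell and 1 rose, against 64.2% and 0.931% of all tested genes. On the TMM scale with the replicate number as a block, 47 fell and 30 rose, against 34.8% and 36.2% of all tested genes. The number that rose was 18 without replicate 2, a fit that uses fewer libraries, against 28 with all replicates. The share of all tested genes that rose in that fit is not given here. At 4 h against 0 h, which uses the same 0 h and 4 h libraries without assuming a straight line, 41 members were lower and 25 higher, against 31.6% and 28.7% of all tested genes. The 3 libraries of 4 h lay entirely below those of 0 h for 44 members and entirely above them for 23, against 33% and 30.4% of all tested genes.

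**Figure D1:**
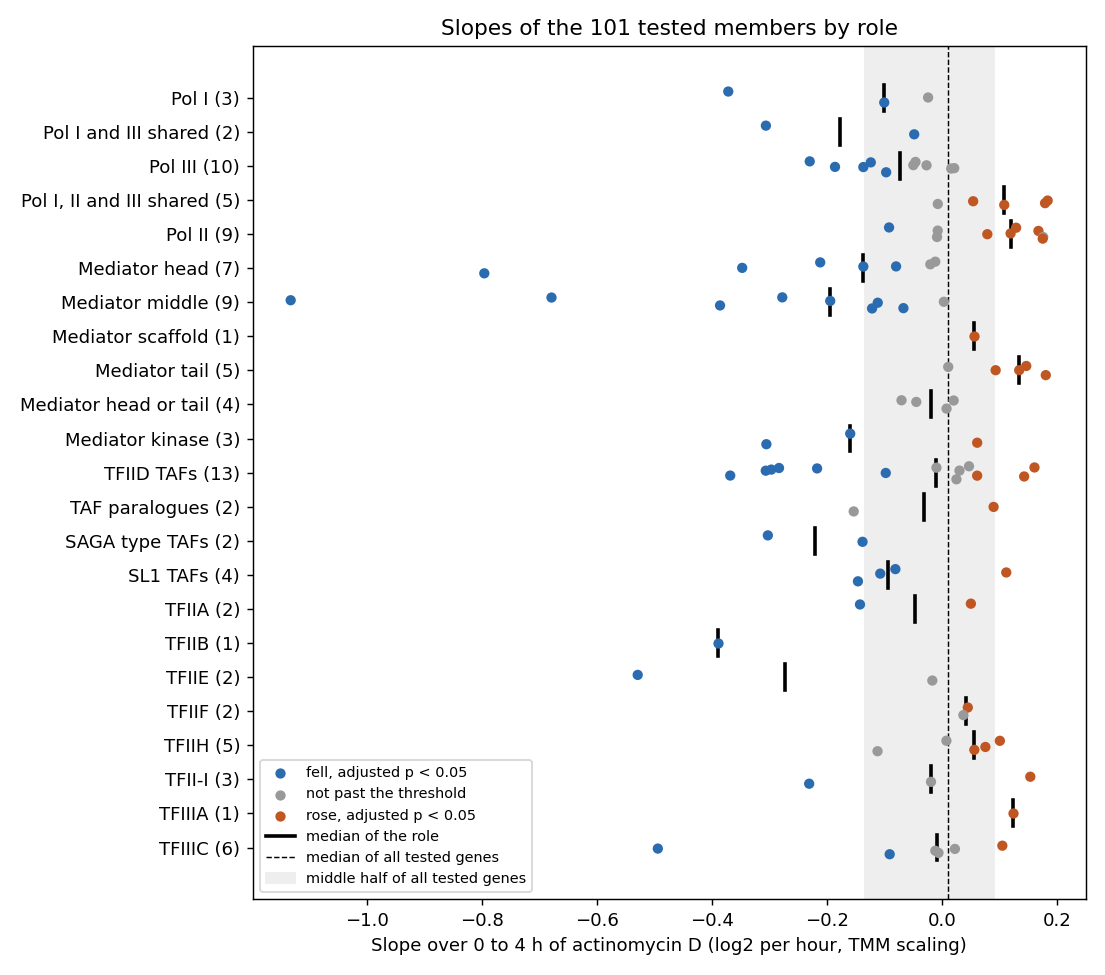
Slope of each tested member (log2 per hour, TMM scaling) by its role, with the number of tested members in parentheses; points are members coloured by the edgeR call, black ticks role medians, the dashed line the median of all tested genes and the shaded band their quartiles. The Mediator middle and head reach furthest to the left, while most subunits of RNA polymerase II and of the Mediator tail lie to the right of the dashed line; with GAPDH plus ACTB scaling POLR2E was the 1 member that still rose.

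The families differed in the sign of their medians on the TMM scale, which the counts here use unless stated. Of all tested genes, 32.1% fell and 30.7% rose on that scale. All tested POLR1 and POLR3 slopes that passed the test were falls, 4 of 5 in POLR1 and 5 of 10 in POLR3, with medians 0.110 and 0.083 below that of all genes. In POLR2, 9 of 14 members rose and 1 fell, with a median 0.104 above that of all genes (0.113 on the TMM scale, −0.025 with GAPDH plus ACTB scaling). Without POLR2J3 and POLR2J4, near-copies of POLR2J, 8 of 12 rose and 1 fell, with a median 0.084 above that of all genes. In MED, 15 of 29 fell and 6 rose (median 0.080 below that of all genes). In TAF, 11 of 21 fell and 5 rose (0.107 below). GTF2 had 4 falls and 6 rises among 15, and GTF3 had 2 falls and 2 rises among 7, with medians within 0.0021 and 0.016 of that of all genes. With GAPDH plus ACTB scaling the falls were 25 in MED, 17 in TAF, 12 in GTF2 and 5 in GTF3, with 0 rises in these 4 families. POLR2 had 6 falls and 1 rise, and all 5 POLR1 and all 10 POLR3 members fell. With this scaling 64.2% of all tested genes fell and 0.931% rose. Fitted in single replicates, the medians relative to all genes ranged from −0.129 to −0.077 for POLR1, from −0.103 to −0.070 for POLR3, from 0.080 to 0.103 for POLR2, from −0.111 to −0.051 for MED and from −0.121 to −0.076 for TAF.

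Most RNA polymerase II messages rose relative to the library on the TMM scale, though not those of its largest subunits. POLR2A, which encodes the largest subunit and its catalytic centre (GRCh38, chr17:7484366-7514616), was at 634, 512 and 522 CPM at 0 h, 658, 588 and 545 at 1 h, 619, 550 and 552 at 2 h, and 616, 544 and 507 at 4 h. Replicate 1 was the highest at every time, and the 4 times overlapped. Its mean was 556 ± 68 (SD, n = 3) at 0 h and 556 ± 55 at 4 h, and its slope was −0.0079 ± 0.023 (SE) log2 per hour (edgeR adjusted p = 0.78). POLR2B, the other large subunit, had a slope of −0.0091 and overlapping 0 h and 4 h libraries.

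POLR2E, which encodes a subunit shared by the 3 polymerases (chr19:1086574-1095380), had the steepest rise among the members. It was at 168, 150 and 167 CPM at 0 h, 182, 172 and 179 at 1 h, 211, 189 and 188 at 2 h, and 274, 259 and 268 at 4 h. The libraries of 4 h all lay above those of every earlier time, and those of 0 h below all others. The slope was 0.18 ± 0.015 (adjusted p = 3.8e-08), and POLR2E was the only member that still rose with GAPDH plus ACTB scaling (0.045, adjusted p = 0.046). POLR2L, a small shared subunit, went from 40.2 ± 3.4 CPM at 0 h to 64.6 ± 4.3 at 4 h, with a slope of 0.18 on the TMM scale, and was not past the threshold with GAPDH plus ACTB scaling (0.042, adjusted p = 0.185).

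Of the 5 subunits shared by the 3 polymerases, POLR2E, POLR2F, POLR2H and POLR2L rose on the TMM scale, whereas POLR2K had a slope of −0.0078 and overlapping 0 h and 4 h libraries; with GAPDH plus ACTB scaling the median of the 5 was −0.030. The other 9 tested POLR2 members include POLR2J3 and POLR2J4, near-copies of POLR2J. Of the 9, POLR2C, POLR2G, POLR2I, POLR2J and POLR2J4 rose on the TMM scale. Their slopes from 0.078 to 0.175 lay between −0.060 and 0.039 with GAPDH plus ACTB scaling. POLR2D, which with POLR2G forms the stalk of the enzyme, was the only fall. It was at 79.7, 92.4 and 90.6 CPM at 0 h and at 68.6, 69.8 and 64.4 at 4 h, with no overlap and a slope of −0.092 (adjusted p = 0.00014). Its stalk partner POLR2G was at 53.9, 57.5 and 57.2 CPM at 0 h and at 77.9, 73.0 and 83.7 at 4 h, also with no overlap. The call of POLR2H was lost without replicate 1 or 2, and that of POLR2J4 without replicate 2 or 3. POLR2J4 was at 3.13 ± 1.06 CPM at 0 h and 5.02 ± 0.66 at 4 h, with overlapping libraries. Its slope in replicate 1 alone was −0.0047. POLR2J3 and POLR2J4 are near-copies of POLR2J, and POLR2J2, a further copy, had no count, so the values of these copies depend on how shared reads were counted.

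**Figure D2:**
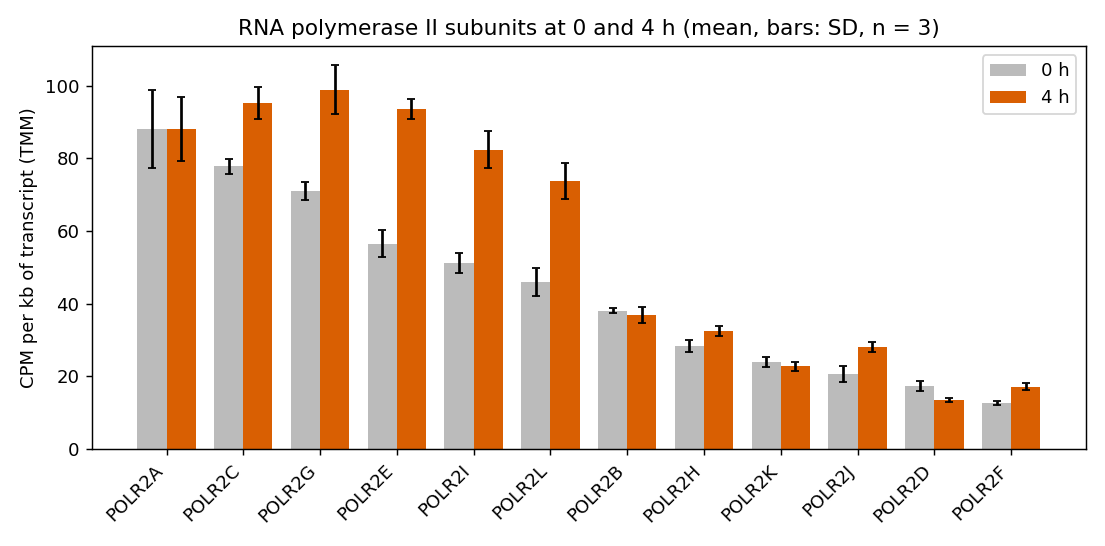
Level per kilobase of canonical transcript (TMM-scaled CPM per kb) of the 12 subunits of RNA polymerase II at 0 h (grey) and 4 h (orange); bars are means and whiskers SD of 3 replicates. POLR2A stayed at 88.0, whereas POLR2G, POLR2E, POLR2I and POLR2L moved up on the TMM scale and POLR2D moved down.

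Per kilobase of canonical transcript, POLR2A had the highest level of the 12 subunits at 0 h, 88.0 ± 10.7 CPM per kb. POLR2C followed at 77.8 ± 2.0 and POLR2G at 71.1 ± 2.5, and the libraries of POLR2A and POLR2C are not separated by more than their spread. At the low end were POLR2J at 20.6 ± 2.1, POLR2D at 17.4 ± 1.4 and POLR2F at 12.7 ± 0.5. At 4 h the highest means were POLR2G at 98.9 ± 6.8, POLR2C at 95.2 and POLR2E at 93.5 CPM per kb, with POLR2A at 88.0 ± 8.8. POLR2C and POLR2E lay within 1 SD of POLR2A, and the ranges of 1 SD around POLR2G and POLR2A overlapped. The order at the top is therefore not separated by more than the spread. These levels rest on the annotated length of one transcript per gene.

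Of the messages specific to RNA polymerases I and III, those that passed the test fell on the TMM scale, and others did not pass it. POLR1B, the second largest subunit of RNA polymerase I (chr2:112541915-112579818), was at 111, 105 and 96.4 CPM at 0 h, 96.2, 107 and 82.9 at 1 h, 79.5, 75.3 and 65.0 at 2 h, and 40.6, 42.1 and 31.8 at 4 h. The 2 h and 4 h libraries lay below all of those of 0 h and of each earlier time, and replicate 3 was the lowest at each time. Its slope was −0.37 ± 0.034 (adjusted p = 1.1e-07), and 36.6% of the 0 h mean remained at 4 h. POLR1A, its partner in the catalytic core, was at 146, 115 and 117 CPM at 0 h and at 128, 121 and 101 at 4 h, with overlapping libraries and a slope of −0.025 (adjusted p = 0.46).

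POLR1C and POLR1D form the assembly core that RNA polymerases I and III share. POLR1C fell from 42.2 ± 4.3 to 18.8 ± 4.2 CPM, with a slope of −0.31, and POLR1D from 95.9 ± 4.5 to 84.1 ± 3.9, with a slope of −0.049. POLR1E fell with a slope of −0.10, a call that was lost without replicate 2. The subunits that the table lists under the older names TWISTNB, CD3EAP and ZNRD1 (now POLR1F, POLR1G and POLR1H) are not captured by the symbol rule, and each fell, with slopes of −0.26, −0.28 and −0.25.

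In RNA polymerase III, both large subunits fell. POLR3A, the largest, was at 82.9, 75.5 and 73.6 CPM at 0 h and at 47.8, 49.2 and 42.0 at 4 h, and POLR3B at 36.9, 41.8 and 38.4 and at 24.3, 22.5 and 17.1. Neither gene's 0 h and 4 h libraries overlapped, and the slopes were −0.19 ± 0.020 (adjusted p = 6.75e-07) and −0.23 ± 0.035 (adjusted p = 2.5e-05). POLR3C, POLR3E and POLR3F also fell, with slopes from −0.14 to −0.098. POLR3K, POLR3G and POLR3GL had slopes of 0.016, −0.027 and 0.021 with overlapping libraries. POLR3D did not pass the test, with adjusted p = 0.061, and passed it with the replicate number as a block, with adjusted p = 0.0075 in edgeR.

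**Figure D3:**
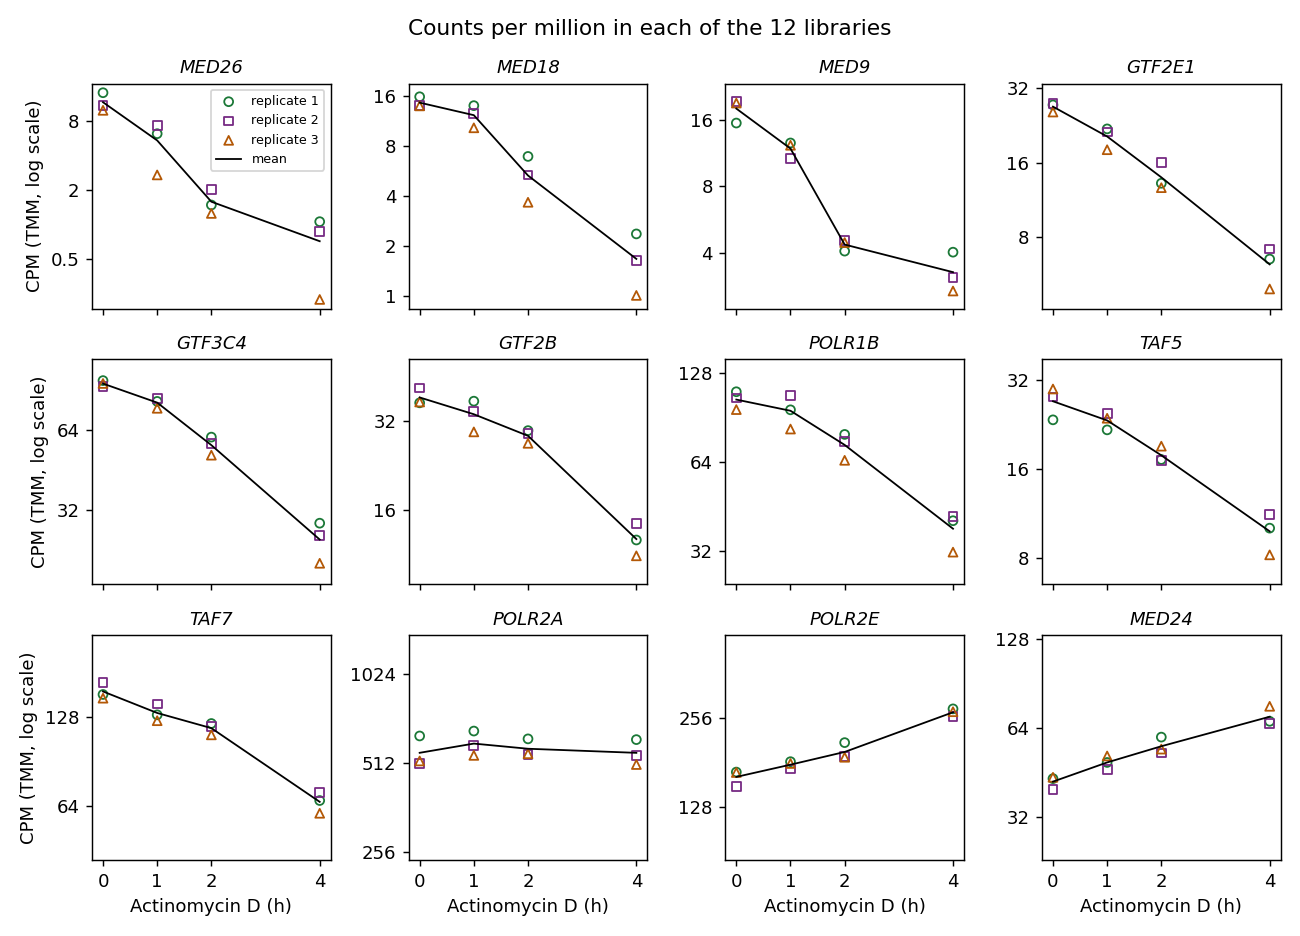
TMM-scaled CPM (log axis) in each of the 12 libraries for 12 members against hours of actinomycin D; symbols are the 3 replicates and the line joins the means. MED26, MED18 and MED9 lose most of their level by 2 h or 4 h, POLR2A stays level, and POLR2E and MED24 climb on the TMM scale.

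Among the general factors of RNA polymerase II, TFIIB and the large TFIIE subunit fell, while no tested subunit of TFIIF or TFIIH named GTF2F or GTF2H fell on the TMM scale. GTF2E1, the large subunit of TFIIE, which recruits TFIIH (chr3:120742637-120783069), was at 27.4, 27.8 and 25.6 CPM at 0 h, 21.9, 21.3 and 18.0 at 1 h, 13.2, 16.0 and 12.7 at 2 h, and 6.51, 7.15 and 4.92 at 4 h. Each time lay below all libraries of the time before it. The slope was −0.53 ± 0.035 (adjusted p = 5.0e-09). GTF2E2, the small subunit of the same heterodimer, was at 46.2, 53.6 and 48.4 CPM at 0 h and at 46.7, 48.0 and 44.7 at 4 h, with overlapping libraries and a slope of −0.017.

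GTF2B, the single polypeptide TFIIB that bridges the polymerase and the TBP-bound promoter, was at 36.8, 41.3 and 37.1 CPM at 0 h, 37.3, 34.4 and 29.4 at 1 h, 29.7, 28.9 and 26.9 at 2 h, and 12.7, 14.4 and 11.2 at 4 h. The 2 h and 4 h libraries lay below those of 0 h, and 33.2% of the 0 h mean remained at 4 h. The slope was −0.39 ± 0.038 (adjusted p = 2.4e-07). In TFIIA, GTF2A1 fell (slope −0.14), whereas GTF2A2 rose on the TMM scale (0.050, adjusted p = 0.037) and fell with GAPDH plus ACTB scaling (−0.089, adjusted p = 0.0031), and its rise was lost without replicate 1 or 2. In TFIIF, GTF2F1 rose on the TMM scale (0.044, adjusted p = 0.0345) and fell with GAPDH plus ACTB scaling (−0.094), and its call was lost without any 1 of the 3 replicates. GTF2F2 was not past the threshold (0.037, adjusted p = 0.16) and passed it with the replicate block (adjusted p = 0.043).

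Of the 5 tested TFIIH core members, GTF2H3, GTF2H4 and GTF2H5 rose on the TMM scale with slopes from 0.056 to 0.10, and their slopes lay between −0.082 and −0.037 with GAPDH plus ACTB scaling. The calls of GTF2H4 and GTF2H5 were lost without replicate 3, and also without replicate 1 and 2, respectively. GTF2H1 was at 42.2 ± 5.1 CPM at 0 h and 43.1 ± 0.9 at 4 h. GTF2H2, of which the genome holds near-identical copies, was at 3.40 ± 0.42 CPM at 0 h and 2.34 ± 0.58 at 4 h; its slope of −0.11 had an adjusted p of 0.096, or 0.048 with the replicate block in edgeR. GTF2I, which encodes the multifunctional factor TFII-I, had a slope of −0.020 with overlapping libraries. Its relative GTF2IRD1 was at 47.2, 47.3 and 47.8 CPM at 0 h and at 27.7, 27.5 and 23.8 at 4 h, with a slope of −0.23. GTF2IP20, an annotated pseudogene of GTF2I, was at 3.31 ± 0.45 CPM at 0 h and 5.58 ± 1.06 at 4 h, a rise that was lost without replicate 2 or 3, and reads shared with GTF2I make its value uncertain.

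TFIID, the TBP-containing factor that recognises core promoters, did not move as 1 unit. Of its 13 TAFs, TAF3, TAF4, TAF5, TAF7, TAF8 and TAF11 fell, TAF6, TAF10 and TAF12 rose on the TMM scale, and TAF1, TAF2, TAF9 and TAF13 did not pass the test. With GAPDH plus ACTB scaling the slopes of TAF6, TAF10 and TAF12 were 0.0043, 0.022 and −0.077, and the call of TAF12 was lost without any 1 of the 3 replicates. TAF5, a scaffold with WD40 repeats, was at 23.4, 27.9 and 29.7 CPM at 0 h, 21.6, 24.5 and 23.7 at 1 h, 17.2, 17.0 and 19.0 at 2 h, and 10.1, 11.2 and 8.17 at 4 h. The libraries of 2 h lay below those of 0 h and 1 h, and those of 4 h below all others. Its slope was −0.37 ± 0.033 (adjusted p = 7.7e-08).

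TAF7, a regulator of the TAF1 subunit (chr5:141259884-141320784), was at 152, 167 and 148 CPM at 0 h, 130, 141 and 124 at 1 h, 121, 119 and 111 at 2 h, and 66.6, 70.9 and 60.3 at 4 h. Each time lay below all libraries of the time before it. Its slope was −0.31 ± 0.023 (adjusted p = 1.7e-08), and it was the 1 tested member of 100 with annotated features whose canonical transcript has a single exon. TAF1, the largest TAF, was at 63.5, 51.5 and 60.4 CPM at 0 h and at 53.6, 54.6 and 60.0 at 4 h, with overlapping libraries. TAF6, a histone-fold TAF, rose from 69.5 ± 0.7 to 106 ± 8 CPM (slope 0.14 ± 0.018, adjusted p = 3.5e-06, TMM scale). TAF10, which TFIID shares with the SAGA coactivator, was at 11.9, 11.8 and 12.3 CPM at 0 h and at 18.6, 18.9 and 19.8 at 4 h, with no overlap on the TMM scale and a slope of 0.022 with GAPDH plus ACTB scaling.

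The TAFs of SL1, the promoter factor of RNA polymerase I, were TAF1A, TAF1B and TAF1D, which fell with slopes of −0.11, −0.15 and −0.081, and TAF1C, which rose on the TMM scale with a slope of 0.11 (−0.027 with GAPDH plus ACTB scaling, not past the threshold). TAF1D was lost without replicate 1 or 3, and TAF1A without replicate 2. TAF5L and TAF6L, the counterparts of TAF5 and TAF6 in SAGA-type complexes, both fell, from 77.8 ± 3.7 to 34.4 ± 4.5 CPM and from 28.4 ± 1.5 to 19.3 ± 2.5.

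Of the RNA polymerase III factors, TFIIIC held both a steep fall and a rise. GTF3C4, the TFIIIC subunit with histone acetyltransferase activity (chr9:132670035-132694953), was at 98.1, 93.0 and 95.7 CPM at 0 h, 82.0, 84.2 and 77.2 at 1 h, 60.2, 56.8 and 51.5 at 2 h, and 28.6, 25.7 and 20.3 at 4 h. Each time lay below all libraries of the time before it. The slope was −0.49 ± 0.031 (adjusted p = 3.6e-09), and 26.0% of the 0 h mean remained at 4 h. GTF3C2 fell by 0.091 log2 per hour. GTF3C6 rose on the TMM scale from 99.2 ± 4.7 to 129 ± 10 CPM, and GTF3A, the zinc-finger protein TFIIIA that binds 5S RNA genes, from 134 ± 4 to 183 ± 4 CPM; their slopes of 0.10 and 0.12 became −0.033 and −0.015 with GAPDH plus ACTB scaling, neither past the threshold. GTF3C1, the largest TFIIIC subunit, had a slope of 0.022 with overlapping libraries, and GTF3C3 and GTF3C5 had slopes of −0.012 and −0.0066.

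Mediator showed the widest spread. MED26, the subunit through which Mediator recruits elongation factors (chr19:16574907-16629062), was at 14.1, 10.98 and 9.94 CPM at 0 h, 6.22, 7.36 and 2.72 at 1 h, 1.49, 2.02 and 1.26 at 2 h, and 1.07, 0.870 and 0.224 at 4 h. The last 3 libraries held 9, 9 and 2 counts. Each time lay below all libraries of the time before it. The slope of −1.13 ± 0.11 (adjusted p = 2.1e-07) was the steepest fall of the members and the 25th steepest of all 12032 genes, and 6.16% of the 0 h mean remained at 4 h.

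MED18, a head subunit (chr1:28329002-28335965), was at 15.9, 14.1 and 14.0 CPM at 0 h, 14.1, 12.6 and 10.3 at 1 h, 6.95, 5.36 and 3.67 at 2 h, and 2.37, 1.64 and 1.01 at 4 h. The 0 h and 1 h libraries overlapped, those of 2 h lay below them, and those of 4 h below all others. The slope was −0.80 ± 0.074 (adjusted p = 1.3e-07). MED9, a small middle subunit (chr17:17476994-17493221), was at 15.4, 19.4 and 19.0 CPM at 0 h, 12.5, 10.7 and 12.2 at 1 h, 4.07, 4.55 and 4.45 at 2 h, and 4.02, 3.09 and 2.69 at 4 h. It was already below all 0 h libraries at 1 h, and most of its fall lay between 1 and 2 h. The slope was −0.68 ± 0.068 (adjusted p = 2.6e-07).

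The modules of Mediator had different medians. The counts below are on the TMM scale, on which 32.1% of all tested genes fell and 30.7% rose. In the middle module, 8 of 9 subunits fell, with a median slope of −0.19 (−0.33 with GAPDH plus ACTB scaling) and MED10 as the exception (0.0027). In the head, 5 of 7 fell, with a median of −0.14 (−0.28 with GAPDH plus ACTB scaling), and MED11 and MED22 had slopes of −0.012 and −0.021. In the tail, which contacts activators, MED15, MED16, MED24 and MED25 rose on the TMM scale and MED23 had a slope of 0.010, for a median of 0.134 that became −0.0040 with GAPDH plus ACTB scaling. Without replicate 2 the calls of MED15, MED19 and MED20 were lost, and without replicate 1 or 3 that of MED21. The median of the tail exceeded that of the middle by 0.328 log2 per hour, and by 0.327, 0.322 and 0.345 in the single replicates (SD 0.012). A common scaling factor cancels in this difference. The members of a module are not replicates, and the difference is given without a test.

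MED24 had the steepest rise of Mediator on the TMM scale. It was at 43.0, 39.6 and 43.5 CPM at 0 h, 48.8, 46.3 and 51.3 at 1 h, 59.4, 52.5 and 54.1 at 2 h, and 67.2, 66.2 and 75.5 at 4 h. Each time lay above all libraries of the time before it on this scale. The slope was 0.18 ± 0.018 (adjusted p = 2.7e-07), against 0.042 with GAPDH plus ACTB scaling (adjusted p = 0.158). MED25, the target of several viral and cellular activators, went from 34.2 ± 4.5 to 53.8 ± 3.7 CPM, and MED16 from 50.2 ± 6.0 to 73.4 ± 2.5.

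MED14, the backbone that links the modules, rose on the TMM scale with a slope of 0.055 (adjusted p = 0.019; −0.083 with GAPDH plus ACTB scaling), a call lost without replicate 1 or 2. MED1, the subunit that binds nuclear receptors, fell from 108 ± 5 to 77.4 ± 8.0 CPM with a slope of −0.12. MED27, MED28, MED29 and MED30, which sources place in the head or in the tail, did not pass the test, with slopes from −0.071 to 0.020; MED27 passed it with the replicate block (adjusted p = 0.037). The kinase module held 2 falls, MED13 and MED13L, while MED12, the activator of the kinase, rose on the TMM scale from 58.1 ± 6.2 to 68.7 ± 3.9 CPM (slope 0.061, adjusted p = 0.0092) and fell with GAPDH plus ACTB scaling (−0.077, adjusted p = 0.0054). The call of MED12 was lost without replicate 3, and MED12L had at most 3 counts in a library.

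**Figure D4:**
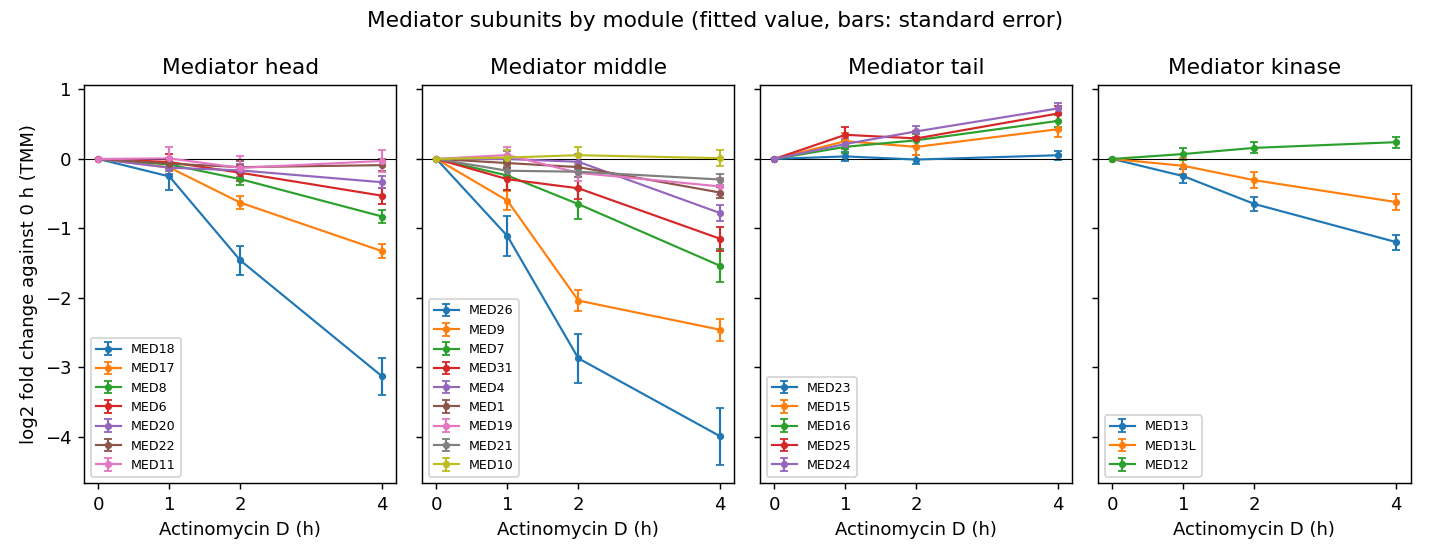
Fitted log2 change against 0 h (TMM scaling, bars are SE) of Mediator subunits in the head, middle, tail and kinase modules against hours of actinomycin D. MED26, MED18 and MED9 reach −3.99, −3.13 and −2.46 at 4 h, while MED24 reaches 0.73 on the TMM scale.

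After 1 h of actinomycin D the number of members called depended on the replicate block. Without it, MED9 was the only member lower than at 0 h in edgeR (log2 change −0.60, adjusted p = 0.027). No member was higher without the block, in edgeR or in DESeq2. Of all tested genes, 2.24% were lower and 0.349% higher in edgeR without the block. Without the block, 6 of 101 members were lower and 9 higher at an unadjusted p below 0.05. Of all 12032 tested genes, 1131 were lower and 574 higher at that level. DESeq2's Wald test called 2 members lower and 0 higher, against 2.39% and 0.615% of all genes. In the fit blocked on replicate, 7 members were lower, namely GTF2E1, GTF3C4, MED9, MED13, MED26, TAF5L and TAF7, and 10 were higher, namely GTF2F1, GTF2IP20, MED14, MED15, MED24, MED25, POLR2A, POLR2E, TAF1C and TAF6, against 10.5% of all tested genes that were lower and 6.18% that were higher in the same fit. In that fit MED26 had already changed by −1.12 (adjusted p = 5.5e-06) and TAF7 by −0.24 (adjusted p = 9.0e-05). The call of MED9 without the block was lost when any 1 replicate was left out. The 1 h and 4 h contrasts share their 0 h libraries.

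A ratio of 2 paralogues within a library does not depend on its scaling. Of 12 paralogue pairs, 7 had both members measured, and in 3 the 0 h and 4 h libraries did not overlap. The log2 ratio of MED13 to MED13L was −0.042, 0.035 and 0.085 at 0 h and −0.55, −0.47 and −0.66 at 4 h, so the counts of the 2 messages were close at the start and differed at the end in every replicate. The log2 ratio of TAF6 to TAF6L rose from 1.29 ± 0.09 to 2.46 ± 0.29, and that of GTF2I to GTF2IRD1 from 0.98 ± 0.02 to 1.76 ± 0.18 (SD, n = 3).

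For the other pairs the 0 h and 4 h libraries overlapped. The ratios of POLR3G to POLR3GL, TAF4 to TAF4B, TAF5 to TAF5L and TAF9 to TAF9B changed by −0.21 ± 0.12, −0.49 ± 0.29, −0.28 ± 0.24 and −0.16 ± 0.09. TAF4 fell with a slope of −0.28, and TAF4B, at 4.06 ± 1.2 CPM, had a slope of −0.15 (adjusted p = 0.058, or 0.024 with the replicate block in edgeR). TAF9 had a slope of 0.046 (adjusted p = 0.062, or 0.0043 with the block; −0.091 with GAPDH plus ACTB scaling), and shares its locus with AK6, which makes its count uncertain. TAF9B rose on the TMM scale with 0.089 (−0.049 with GAPDH plus ACTB scaling), a call lost without replicate 1 or 2.

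The nonamer TTATTTATT is the core of the AU-rich elements that mark some short-lived messages. It was searched on the sense strand of the 3′ UTRs of the canonical transcripts of GENCODE version 44, overlapping matches included. It occurred in 11 of 97 members with an annotated 3′ UTR (11.3%), against 10.1% of all 10814 tested genes with one. Of the 11, 7 fell, against 32.1% of all tested genes, and GTF2A2 rose on the TMM scale but fell with GAPDH plus ACTB scaling. The members' median slope was −0.12 with the nonamer and −0.020 without it, against −0.049 and 0.014 for all genes. Windows of 27 bases are shown for some pairs of members of the same complex that differed in slope. They are from GRCh38, 5′ to 3′ on the strand of the gene, with the nonamer in capitals.
MED13 (chr17:61946011-61946037, minus strand): tctcttctcTTATTTATTgtaagtttt
MED13 (chr17:61945104-61945130, minus strand): ttgccttttTTATTTATTtaattttct
MED13L (chr12:115960651-115960677, minus strand): tcattttgtTTATTTATTttaatttgt
GTF2A1 (chr14:81175452-81175478, minus strand): aaagatatcTTATTTATTgccagcaaa
GTF2A2 (chr15:59639040-59639066, minus strand): agagactttTTATTTATTctagaattg
POLR3A (chr10:77976975-77977001, minus strand): ttgttactaTTATTTATTtgttccatt
POLR3F (chr20:18483915-18483941, plus strand): tttttaaagTTATTTATTaagttcttc
POLR3K (chr16:47018-47044, minus strand): tgtaatttaTTATTTATTttaatcaaa

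MED13, with 2 copies, had a slope of −0.31 and MED13L, with 1, a slope of −0.16. GTF2A1 and GTF2A2 hold 1 copy each and had slopes of −0.14 and 0.050. POLR3K, with 8 copies, the most of any member, had a slope of 0.016, whereas POLR3A and POLR3F, with 1 each, had slopes of −0.19 and −0.12. Other carriers went the other way. POLR3C, of the same polymerase as POLR3K, holds 3 copies and had a slope of −0.14. POLR2D holds 3 and had a slope of −0.092, while its stalk partner POLR2G holds no copy and had a slope of 0.13. MED26, MED18 and MED9, the 3 steepest falls, hold no copy in the annotated window. The shorter core ATTTA occurred in 71 of 97 member 3′ UTRs (73.2%), against 75.1% of all, and the members' median slope was −0.091 with it and 0.045 without it, against −0.012 and 0.078 for all genes. A match is a description of the sequence and not a measured site.

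Across members, genes with longer 3′ UTRs tended to lower slopes (Spearman −0.27, n = 97), as did longer gene spans (−0.32, n = 100) and more ATTTA (−0.34, n = 97), while GC content went the other way (0.26, n = 100). Over all tested genes with these features the same coefficients were −0.27, −0.091, −0.31 and 0.27. These are correlations across genes of the same libraries, which share depth and library preparation and are not independent replicates. In Mediator the median GC content of the canonical transcripts was 61.0% in the tail, 44.8% in the middle and 48.8% in the head. MED26 (60.7%) and MED9 (55.6%) fell steeply with a GC content above the members' median of 46.6%. The part of GC content in these slopes was not tested.

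Of the proteins that work with these complexes but carry other names, 38 were tested, and 18 fell and 9 rose on the TMM scale, with a median slope of −0.043, against 32.1% and 30.7% of all tested genes. With GAPDH plus ACTB scaling 34 of them fell and 0 rose, against 64.2% and 0.931% of all tested genes. TBP, the subunit of TFIID, SL1 and TFIIIB that binds the TATA box, was at 26.9, 27.8 and 26.7 CPM at 0 h and at 9.47, 10.6 and 8.84 at 4 h, with a slope of −0.38 ± 0.027 (adjusted p = 9.7e-09). Its 0 h and 4 h libraries were separated by more than their spread. BRF2 and BRF1, the TFIIB relatives of RNA polymerase III, fell with slopes of −0.41 and −0.15. CTDP1, the phosphatase of the POLR2A C-terminal domain, fell with −0.43, from 13.9 ± 0.8 to 4.16 ± 0.87 CPM.

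The kinase CDK7 of TFIIH fell (slope −0.30), its partners CCNH and MNAT1 did not pass the test (0.013 and −0.044), and the helicase ERCC2 of the same complex rose on the TMM scale (0.127; −0.010 with GAPDH plus ACTB scaling). Of the Mediator kinases, CDK8 fell (−0.078), and CDK19 and the cyclin CCNC rose on the TMM scale (0.058 and 0.064), with slopes of −0.080 and −0.074 under GAPDH plus ACTB scaling. The call of CDK8 was lost without replicate 2 or 3, that of CDK19 without any 1 of the 3 replicates and that of CCNC without replicate 2. MAF1, the repressor of RNA polymerase III, had a slope of 0.081 on the TMM scale and −0.058 with GAPDH plus ACTB scaling. The mitochondrial polymerase POLRMT and its factor TFAM did not pass the test, and TFB2M fell with −0.21. TFAM, with a slope of −0.026 (adjusted p = 0.184), passed with the replicate block (adjusted p = 0.034 in edgeR).

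**Figure D5:**
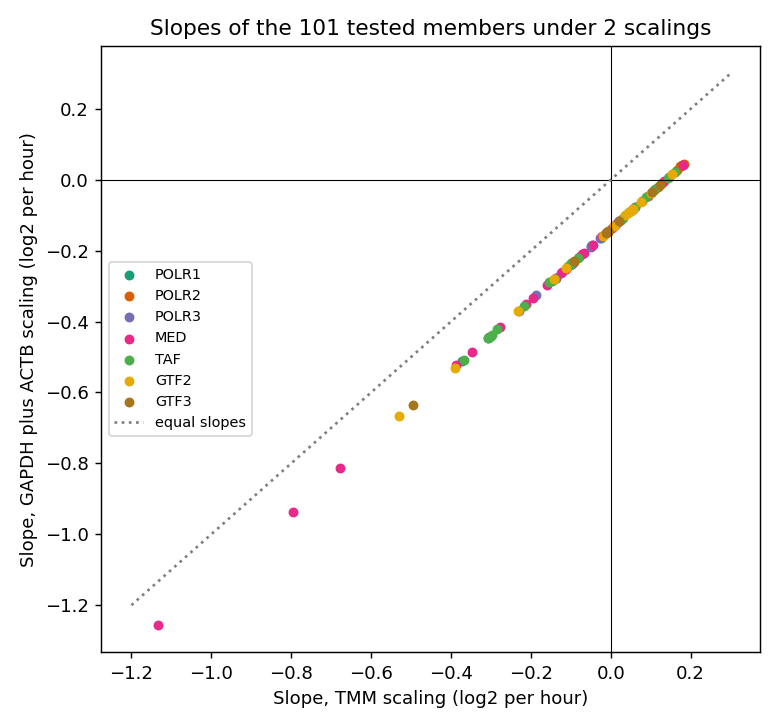
Slope of each tested member with TMM scaling (horizontal axis) against the slope with GAPDH plus ACTB scaling (vertical axis), both in log2 per hour and coloured by family; the dotted line marks equal slopes. The points run parallel to and below the dotted line, since the median over all genes is lower by 0.138 under the second scaling, and those to the right of 0 on the TMM scale mostly lie at or below 0 on the other.

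With GAPDH plus ACTB scaling MED26, MED18 and MED9 had slopes of −1.26, −0.94 and −0.81 and POLR2A one of −0.15 (adjusted p = 2.1e-06). GAPDH and ACTB themselves had slopes of 0.152 and 0.122 on the TMM scale.

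The 13 members below the count filter were left untested. GTF2A1L, GTF2IP1, GTF2IP4, GTF2IRD2B and POLR2J2 had no count in any library. TAF7L, TAF1L, POLR2M, MED12L, GTF2H2B, GTF2H2C, GTF2IRD1P1 and GTF2IRD2 had at most 10 counts in a library. Several of these are copies of an expressed member, and the count of a copy depends on how reads that match both were treated.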

How the data were processed

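Poly(A) RNA of the 12 libraries was sequenced from stranded TruSeq preparations. Per gene symbol, the authors deposited counts of reads as whole numbers with no normalization. The submitters' processing notes name FastQC, STAR and the build hg19, while the paper's general methods for this kit name Prinseq, STAR, Salmon and tximport on GRCh38 without naming these libraries; which made the table, and whether strand was used in counting, is not given in the sources used here. Overlapping genes and near-identical copies are therefore uncertain. All 12 columns were matched by title, with 0 columns left unmatched.

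Symbols with a mean of at least 10 counts were kept (12032 genes) and fitted with edgeR 4.0.16 in R 4.3.3 (TMM, glmQLFit, glmQLFTest), with time in hours as a number, or as 4 groups for single times, and no block. Adjusted p are Benjamini-Hochberg values over all tested genes. The common biological coefficient of variation was 0.0905, and errors of slopes are standard errors derived from the F statistic. Replicates of a time differed by more than sampling noise (chi-square per degree of freedom 3.21 to 8.67 over 12 pairs). The labels call them biological replicates seeded in plates and do not say whether they come from separate passages, so p-values measure only the spread between these samples. Replicate numbers come from the labels and paired the libraries: deviations from the time means correlated in all 18 pairs of the same number (mean r 0.597, lowest 0.448). The main fit does not use this pairing, and the fit with the replicate block is given as an alternative. The mean of −0.291 over 36 pairs of different numbers is not separate evidence, because the 3 deviations of a gene at a time sum to 0. On simulated data for the slope, 83.9% of 199 changed genes among 11985 were recovered and 2.34% of calls were unchanged genes. The simulation gave the libraries no replicate effect and changed a far smaller share of genes than was called in the data. These rates therefore do not describe the test on these data.

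Families followed the symbol stems, and roles and partner lists textbook assignments. The members and lists were chosen with earlier results of these data known. Named genes were the 3 steepest falls and 2 steepest rises past the threshold per family that moved that way in 3 of 3 replicates, the largest or key subunits, the paralogues, the partners past the threshold and 5 check genes; other members were named to complete their complex, after their values were seen. Transcript features and 3′ UTRs are those of the canonical transcripts in GENCODE version 44 (GRCh38), matched by symbol for 100 of 101 tested members. Group medians and correlations carry no test. Alternatives were 3 other scalings, DESeq2 1.42.0, 2 count filters, the block, leaving out each replicate and 2 subsets of the times. The values of 1 tested member are not reported here, though it is included in the counts and medians.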

Additional observations from a re-analysis of the deposited data

How the results depend on the processing

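All 42 falls and 28 rises were also called with DESeq2's size factors and with DESeq2's Wald test. Scaled to GAPDH plus ACTB, 80 members fell and 1 rose by the slope, and at 4 h 80 were lower and 0 higher in edgeR (0 also at an unadjusted p below 0.05), under a scaling that lowers the median of all genes by 0.138 log2 per hour. Scaled to library totals, 17 members rose. Over 0, 1 and 2 h only, which uses fewer libraries, 21 fell and 11 rose, against 18.3% and 11.9% of all tested genes. Leaving out 1 replicate, which also uses fewer libraries, gave 18 to 21 rises and 38 to 43 falls. Calls said above to be lost without a replicate come from these smaller fits. The shares of all tested genes called in them are not given here. At 1 h, the single lower member became 6 with GAPDH plus ACTB scaling, 2 with DESeq2's Wald test, 2 with no count filter, 0 with a mean of at least 100 counts (5 at an unadjusted p below 0.05), 7 with the replicate block and 0 to 1 without 1 replicate; the block also gave 10 higher members. Other calls of genes named here that the replicate block changed are given beside each gene. Medians relative to all genes moved to −0.051 for POLR1, −0.067 for TAF and, with a change of sign, 0.057 for GTF3 over 0, 1 and 2 h only, to −0.115 for POLR3 over 1, 2 and 4 h only, and to 0.078 for POLR2 and −0.048 for MED under a mean count minimum of 100. The Mediator tail minus middle difference, chosen after the values were seen, was 0.246 under that count minimum, 0.232 over 0, 1 and 2 h, 0.385 over 1, 2 and 4 h and 0.313 to 0.342 without 1 replicate. The upper quartile of all slopes on the TMM scale was 0.089, less than the shift of 0.138, so such changes of sign are not particular to the members. Of the 41 tested members with a slope above 0 on the TMM scale, 31 were below 0 with GAPDH plus ACTB scaling. Of these 31, 19 were called as rises on the TMM scale. All 13 partners with a slope above 0 on the TMM scale were also below 0 with GAPDH plus ACTB scaling. Examples are GTF2H3 (−0.037), GTF3A (−0.015), GTF3C6 (−0.033), MED12 (−0.077), MED14 (−0.083), GTF2H1 (−0.130), GTF3C1 (−0.117), POLR3GL (−0.116), TAF9 (−0.091), TAF9B (−0.049), SNAPC3 (−0.054), MAF1 (−0.058), ERCC2 (−0.010), CDK19 (−0.080), CCNC (−0.074), RPAP1 (−0.076), GPN1 (−0.069), GPN3 (−0.080), RPRD1A (−0.066) and, of the check genes, ACTB (−0.017). With 0, 1 and 2 h only the sign turned for SNAPC2 (0.017). Where not stated, the cause was not tested. At 4 h the counts of MED26 and MED18 were at most 20 per library, which limits the precision of their end level.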
